A study of Mus musculus with 14 samples.

Results

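The genes described here are 39 interferon-stimulated genes, a list of transcripts that cells make after interferon receptors signal. They were taken by name, from a list drawn up with earlier results of these data known, out of the 49583 genes of an RNA-sequencing table of mouse blood cell populations, and all 39 were found. The members fall into 9 roles: 3 RNA-binding Ifit proteins, 8 membrane and other antiviral effectors, 6 double-stranded RNA effectors, 4 nucleic acid sensors, 4 transcription factors, the pair Isg15 and Usp18, 3 guanylate-binding proteins, 2 poly-ADP-ribose polymerases and 7 others.

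The study profiled 14 samples in 7 groups of 2, all from C57BL/6 mice of wild type genotype. Spleen Ter cells were sorted as Ter-119+ CD45- Lin- from the spleen of tumor-bearing mice, Ter-119 being a surface antigen of red cell precursors. Liver Ter cells were sorted with the same gate from embryonic liver at day E14.5, and CD45+ Ter-119- cells from the spleen of tumor-bearing mice were the study's control. The marrow populations came from mice labelled wild type with no tumor named: HSC (c-Kit+ Sca-1+ Lin-), CLP (the same with IL-7R+), and the libraries labelled MEP (c-Kit+ FcγRlo CD34+) and CMP (c-Kit+ FcγRlo CD34-), both Lin- IL-7R- Sca-1-. Every label states a purity above 98% after sorting. Tumour type, the age of the adult mice and pooling of animals are not given in the labels, and no label ties the 2 samples per group to different mice. The p-values below therefore measure the spread between samples, which may be technical.

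Interferons fall into type I, gamma and lambda families. Type I and lambda interferons signal through the kinases Jak1 and Tyk2 to a complex that holds Stat2 and Irf9 and binds the interferon-stimulated response element (ISRE) in front of target genes. Interferon gamma signals through Jak1 and Jak2 to a factor that binds the gamma-activated sequence (GAS). The induced proteins block viral entry, replication and release, sense foreign nucleic acid and feed back on the pathway, and in blood-forming tissue interferon is also known to act on stem cells and on red cell precursors.

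The ISRE is where the type I signal meets these genes, so its letters were looked for in front of the members. RefSeq promoter windows on GRCm38.p6, from 250 bases before to 50 bases after the annotated start, were available for 30 of the 39 members; Mx1, Mx2, Oas2, Dhx58, Zbp1, Usp18, Parp9, Parp14 and Rtp4 had none. The ISRE letters, GAAA, any NN, then GAAA again, searched on both strands, stood in 17 of the 30 (56.7%), against 1079 of 27025 genes with a window (3.99%). The GAS letters TTCNNNGAA, which read the same on both strands, stood in 9 of the 30 (30.0%), against 9.55% of genes, and in Bst2 and Ifitm3 the letters of the 2 motifs overlap. Printed below are 7 stretches of members on which the results turn: Isg15 and Rsad2 were higher in one spleen Ter library, Ifit1 and Ifit3 in the other, Bst2 and Gbp3 were highest among the tested groups in CMP, and Oas3 in MEP. All lie before the start and are given 5′ to 3′ on the gene's own strand, with every ISRE match in capitals.
Isg15: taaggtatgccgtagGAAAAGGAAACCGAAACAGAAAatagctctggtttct
Rsad2: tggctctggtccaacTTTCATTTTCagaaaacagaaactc
Ifit1: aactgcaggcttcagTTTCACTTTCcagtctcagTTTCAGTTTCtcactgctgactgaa
Ifit3: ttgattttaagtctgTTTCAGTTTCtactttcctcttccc
Bst2: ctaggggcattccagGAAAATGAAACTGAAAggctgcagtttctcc
Gbp3: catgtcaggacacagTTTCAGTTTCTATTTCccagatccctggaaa
Oas3: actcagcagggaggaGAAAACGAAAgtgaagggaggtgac
These stretches are chr4:156200860-156200911 on the minus strand, chr12:26456548-26456587 on the minus strand, chr19:34640770-34640828 on the plus strand, chr19:34583392-34583431 on the plus strand, chr8:71537572-71537617 on the minus strand, chr3:142559984-142560029 on the plus strand and chr5:120777710-120777749 on the minus strand, in that order. Isg15 carries 3 overlapping matches in a row, Bst2 and Gbp3 a pair that overlaps, Ifit1 a pair with a gap between them, and Rsad2, Ifit3 and Oas3 a single match in the stretch shown; Ifit3 has another further upstream. Isg20, Ifitm1, Irf1 and Irf7 hold no ISRE letters in this window, which says only that those letters are not in those 300 bases. On the chromosomes several members are neighbours: Ifit1, Ifit2 and Ifit3 lie together on chromosome 19, Ifitm1, Ifitm2 and Ifitm3 on chromosome 7, Gbp2, Gbp3 and Gbp7 on chromosome 3, Oas1a, Oas2 and Oas3 on chromosome 5, Mx1 with Mx2 on chromosome 16 and Rsad2 with Cmpk2 on chromosome 12.

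Each group has a single deposited value per gene, which is the authors' mean over its 2 samples in FPKM, fragments scaled for transcript length and library size. In the spleen Ter, liver Ter, MEP and CMP columns the digits of the mean allowed both libraries behind it to be recovered as whole fragments. The deeper library of each pair is named A and the other B, and the 8 held between 13413530.5 and 28537889 fragments. All 39 members were recovered in all 8 libraries. The control, HSC and CLP columns were made in another way, keep no such trace, have no error and an unknown depth, and are compared without a test.
Some libraries went against the sort gates written in their labels. The libraries labelled MEP, sorted as CD34+, had 0.111 and 0.0273 FPKM of Cd34, against 29.3 and 30.1 in those labelled CMP, sorted as CD34-; the neutrophil genes Ly6g and Mmp8 had 297 and 301 FPKM (Ly6g) and 372 and 331 FPKM (Mmp8) in the MEP-labelled libraries, while the red cell factor Klf1 had 1.57 and 0.944 FPKM there. These values do not settle whether the MEP and CMP labels were exchanged, so each contrast below is with the libraries as labelled. Spleen Ter libraries held the red cell genes Alas2 (366 and 32.3 FPKM) and Slc4a1 (44.3 and 2.07 FPKM), far more in A than in B, together with all 5 B cell markers, all 5 T cell markers and all 6 macrophage markers above 1 FPKM. Over those 6 macrophage and monocyte markers the sum was 155 FPKM in library A and 1012 FPKM in library B. Liver Ter had none of the 5 B cell or 5 T cell markers at 1 FPKM, and its mean was 1636 FPKM for Alas2. The level of Ptprc, the gene of CD45, is not reported here.

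Across the 7 groups most members were at their lowest in liver Ter. Their median mean level was 7.53 FPKM in spleen Ter, 9.96 FPKM in the spleen control, 0.322 FPKM in liver Ter, 12.5 FPKM in HSC, 12.6 FPKM in CLP, 5.69 FPKM in MEP and 4.69 FPKM in CMP. Of the 39 members, 12 reached 1 FPKM in liver Ter, against 35 to 39 in each other group. Fewer genes of any kind did so in liver Ter, with 7240 in all, against 11500 in spleen Ter, 9921 in MEP and 11243 in CMP. Liver Ter was the lowest column for 34 of the 39 members as deposited and for 25 after median-of-ratios or quantile scaling. The lowest column was not counted over all genes. In bulk samples fewer expressing cells and less RNA per cell cannot be told apart.
The median member stood at percentile 41.6 of 16287 expressed genes in liver Ter, at percentile 56.0 in CMP and between percentiles 68.0 and 73.7 in the other 5 groups. Spleen Ter and the spleen control were each highest for 9 members, HSC and CLP each for 8 and MEP for 5, while no member was highest in liver Ter or CMP. The highest column was not counted over all genes either. With columns scaled by median of ratios, MEP was highest for 9, HSC and CLP for 4 each, liver Ter for 2 and CMP for 1. Spleen Ter and the spleen control held the remaining members, and the counts of the other groups moved with the scaling. As deposited, the 9 led by spleen Ter were Ifit3, Ifitm1, Rsad2, Isg20, Irf1, Irf7, Isg15, Ifi35 and Rtp4.

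**Figure D1:**
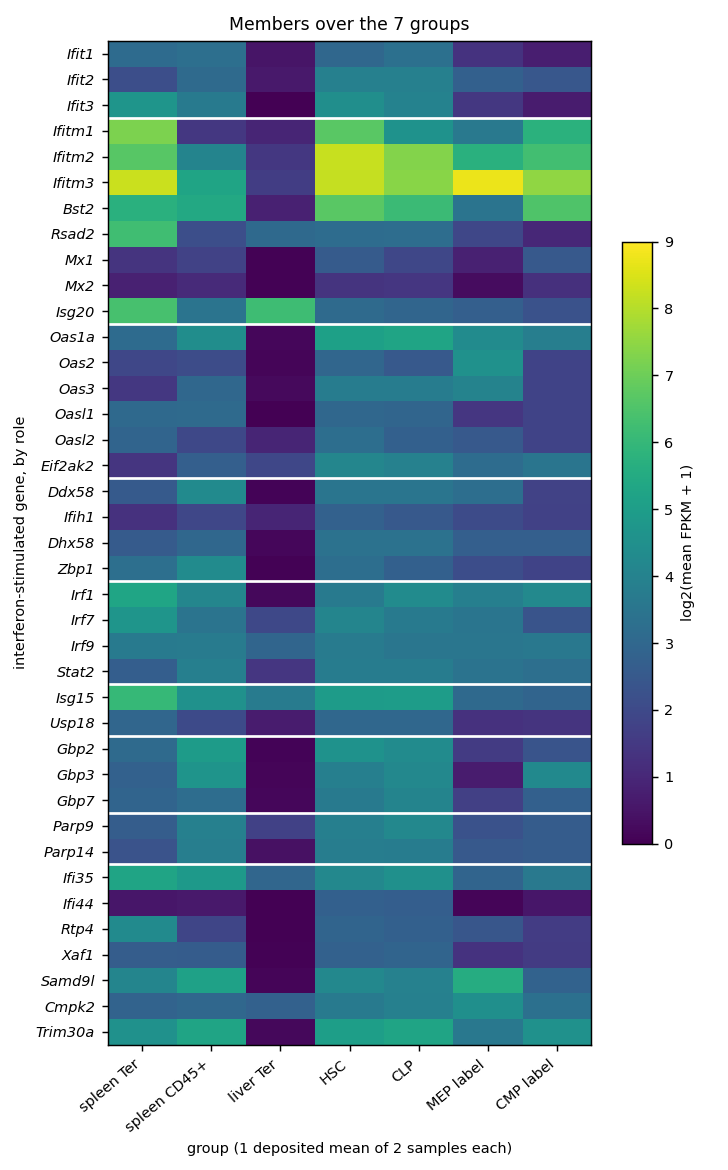
Deposited mean level of each of the 39 members in each of the 7 groups, as colour on a log2(FPKM + 1) scale, with white lines between roles. The liver Ter column is dark for most genes, with Isg20 (72.6 FPKM) its brightest cell, followed by Isg15 and Rsad2.

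The first comparison sets the study's spleen Ter cells against embryonic liver cells caught with the same gate. Of the 38 members that passed the expression filter, 30 rose in spleen Ter and none fell; Ifi44 did not pass, at 0.13 and 0.763 FPKM in spleen Ter and 0 in both liver Ter libraries. A gene was called when the limma p, adjusted by the Benjamini-Hochberg method over 12643 genes, was under 0.05 and the change at least 2-fold on log2(FPKM + 1), a scale that understates changes of low genes. The rule favours genes whose libraries do not overlap, so lack of overlap in called members is no separate support. Overlap was not counted over all genes. By that rule 43.3% of all genes were called higher in spleen Ter and 11.6% lower, a split of 78.8% higher among the calls that median-of-ratios scaling moved to 52% (members, 26 higher and 2 lower). The median log2 fold change was 2.34 over the members and 0.81 over all genes, a gap of 1.53 that was between 1.46 and 1.57 under the other 3 scalings. Of the 30 calls, 23 remained when each library in turn was left out. Leaving out spleen Ter library A ended the call of Isg15, leaving out spleen Ter library B those of Mx1, Oas2 and Stat2, and leaving out either liver Ter library those of Ifit1, Rsad2, Oas2, Oas3, Stat2 and Isg15. B and T cell markers rise with the members here: the 5 B cell markers summed to 1131 FPKM in spleen Ter and 1.53 FPKM in liver Ter, and their part in the result was not tested.

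On the log2(FPKM + 1) scale, which understates genes near 0 in liver Ter such as Irf1, Rtp4 and Samd9l, the largest changes were in the Ifitm proteins, small membrane proteins that stop enveloped viruses from fusing with the cell. Ifitm3 (chr7:141009586-141010770 on mm10, minus strand) had 282 and 344 FPKM in spleen Ter, against 1.96 and 2.19 FPKM in liver Ter, a log2 fold change of 6.67 ± 0.16 (SE, limma adjusted p = 2.45e-06). Ifitm1 had 234 and 65.8 FPKM in spleen Ter, against 1.09 and 0.73 FPKM in liver Ter, a change of 6.04 ± 0.55 (SE, limma adjusted p = 1.17e-04). Ifitm2 had 117 and 84.4 FPKM in spleen Ter, against 1.605 and 1.92 FPKM in liver Ter, a change of 5.19 ± 0.18 (SE, limma adjusted p = 4.16e-06). Both spleen Ter libraries lay far above both liver libraries for all 3 genes, with Ifitm1 the least even between the spleen libraries. Bst2, the tetherin that holds budding virus at the cell surface, behaved the same way, with 38.2 and 64.6 FPKM in spleen Ter, against 1.203 and 0.379 FPKM in liver Ter (log2 fold change 4.86 ± 0.33, limma adjusted p = 3.41e-05).

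The other antiviral effectors were less uniform. Rsad2 (viperin), an enzyme that makes a chain-terminating nucleotide, had 132 and 16.6 FPKM in spleen Ter, against 7.33 and 7.54 FPKM in liver Ter, a change of 2.52 ± 0.86 (SE, limma adjusted p = 0.0353). Its call was lost under all 3 other scalings, with 1.33 and an adjusted p of 0.265 by limma after median-of-ratios scaling. Isg20, an exonuclease that degrades single-stranded RNA, was the strongest member in liver Ter. It had 149 and 17.3 FPKM in spleen Ter, against 71.4 and 73.8 FPKM in liver Ter, with spleen library A above and library B below both liver libraries. Isg20 was not called with both spleen Ter libraries (log2 fold change -0.49 ± 0.87, limma adjusted p = 0.641), was called lower without spleen Ter library A (-2.00, limma adjusted p = 0.00102) and higher without library B (1.03, limma adjusted p = 0.0215). The GTPases Mx1 and Mx2 were low everywhere; Mx1, of which C57BL/6 mice carry a defective allele, rose with 0.763 and 2.32 FPKM in spleen Ter, against 0.00961 and 0.0469 FPKM in liver Ter (log2 fold change 1.23 ± 0.29, limma adjusted p = 0.0078), while Mx2, at 0.623 and 0.894 FPKM in spleen Ter, against 0.0194 and 0.0316 FPKM in liver Ter, was not called because its change on log2(FPKM + 1) was under 2-fold (log2 fold change 0.77 ± 0.18, limma adjusted p = 0.00823).

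Among the Ifit proteins, which bind viral RNA that lacks host cap marks, Ifit1 and Ifit3 rose and Ifit2 was not called. Ifit1 had 2.39 and 13.5 FPKM in spleen Ter, against 0.409 and 0.472 FPKM in liver Ter (log2 fold change 2.28 ± 0.63, limma adjusted p = 0.0154). Ifit3 had 4.13 and 45.03 FPKM in spleen Ter, against 0.0402 and 0 FPKM in liver Ter, a change of 3.91 ± 0.91 (SE, limma adjusted p = 0.00785). Ifit2 had 0.91 and 6.11 FPKM in spleen Ter, against 0.491 and 0.61 FPKM in liver Ter (log2 fold change 1.25 ± 0.55, limma adjusted p = 0.0805). For all 3 genes library B held most of the spleen signal, and none overlapped liver Ter. Ifit3 has a near copy, Ifit3b, at 0.827 and 8.22 FPKM in spleen Ter, so its share of fragments is uncertain; Oas1a with Oas1g and Trim30a with Trim30b and Trim30d carry the same doubt.

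Double-stranded RNA effectors split. Of the 6, 5 rose: the oligoadenylate synthetases Oas1a, Oas2 and Oas3, whose product activates RNase L, and their relatives Oasl1 and Oasl2. Oas1a had 7.51 and 8.06 FPKM in spleen Ter, against 0.186 and 0.0605 FPKM in liver Ter (log2 fold change 2.97 ± 0.21, limma adjusted p = 3.92e-05). Oas2 (1.56 and 4.06 FPKM in spleen Ter, against 0.063 and 0.0897 FPKM in liver Ter) and Oas3 (1.83 and 1.68 FPKM, against 0.178 and 0.177 FPKM) changed less, by 1.74 and 1.22 on the log2 scale. Oasl1, which holds back translation of Irf7, had 3.25 and 11.8 FPKM in spleen Ter, against 0.0269 and 0 FPKM in liver Ter, and Oasl2 4.07 and 8.92 FPKM, against 0.841 and 0.993 FPKM. Spleen Ter was above liver Ter in both libraries for all 5. Eif2ak2, the kinase PKR that stops translation on sensing double-stranded RNA, ran the other way, at 1.502 and 1.71 FPKM in spleen Ter, against 2.597 and 3.0 FPKM in liver Ter. Both spleen values lay below both liver values, yet the change of -0.54 ± 0.16 (SE, limma adjusted p = 0.0209) was under 2-fold; after each of the other 3 scalings it was called lower, at -1.53 by median of ratios (limma adjusted p = 9.14e-05).

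Of the 4 sensors, 3 rose. Ddx58 (RIG-I), which detects viral RNA ends, had 3.16 and 6.45 FPKM in spleen Ter, against 0.0348 and 0.089 FPKM in liver Ter (log2 fold change 2.39 ± 0.35, limma adjusted p = 9.94e-04). Zbp1, a sensor of Z-form nucleic acid that can trigger necroptosis, had 5.51 and 12.2 FPKM in spleen Ter, against 0.0496 and 0 FPKM in liver Ter (log2 fold change 3.18 ± 0.38, limma adjusted p = 3.76e-04). The third was Dhx58 (LGP2), a helper of the RNA sensors, with 2.003 and 8.11 FPKM in spleen Ter, against 0.129 and 0.122 FPKM in liver Ter (log2 fold change 2.22 ± 0.47, limma adjusted p = 0.00512). All 3 lay above liver Ter in both spleen libraries. Ifih1 (MDA5), which detects long double-stranded RNA, had 0.754 and 2.17 FPKM in spleen Ter, against 0.85 and 0.964 FPKM in liver Ter. Its spleen values lie on either side of the liver values, with a change of 0.31 ± 0.29 (SE, limma adjusted p = 0.372).

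Of the transcription factors, Irf1 stood out as even between libraries. It had 37.5 and 39.4 FPKM in spleen Ter, against 0.141 and 0.172 FPKM in liver Ter, a change of 5.09 ± 0.20 (SE, limma adjusted p = 6.03e-06). Irf1 is itself induced early by interferon and drives many of the other members. Irf7, the factor that amplifies type I interferon genes, had 10.6 and 39.5 FPKM in spleen Ter, against 3.05 and 2.597 FPKM in liver Ter (log2 fold change 2.51 ± 0.58, limma adjusted p = 0.00759). Stat2 rose with 3.27 and 7.71 FPKM in spleen Ter, against 1.68 and 1.69 FPKM in liver Ter (log2 fold change 1.18 ± 0.33, limma adjusted p = 0.0159), and Irf9, its partner in the type I complex, was not called (7.61 and 15.98 FPKM in spleen Ter, against 7.04 and 6.09 FPKM in liver Ter). Irf9 had the smallest ratio of highest to lowest mean of the 39 members, with means from 6.56 to 12.5 FPKM over the 7 groups.

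Isg15, the ubiquitin-like protein attached to other proteins after interferon, had 104 and 25.3 FPKM in spleen Ter, against 11.7 and 12.97 FPKM in liver Ter (log2 fold change 1.98 ± 0.67, limma adjusted p = 0.0339). Both spleen values were higher, but the call was lost without spleen Ter library A (0.98, limma adjusted p = 0.0984) and under the 3 other scalings (0.75 by median of ratios, limma adjusted p = 0.422). Usp18 removes Isg15 from proteins and dampens the type I receptor. It had 3.13 and 10.5 FPKM in spleen Ter, against 0.653 and 0.593 FPKM in liver Ter (log2 fold change 2.09 ± 0.48, limma adjusted p = 0.00744), and kept its call without any one library. All 3 guanylate-binding proteins, GTPases that attack vacuoles holding pathogens, rose; Gbp2 had 7.87 and 7.43 FPKM in spleen Ter, against 0.0418 and 0.0907 FPKM in liver Ter (log2 fold change 3.02 ± 0.23, limma adjusted p = 5.47e-05). Gbp3 had 5.35 and 6.42 FPKM in spleen Ter, against 0.107 and 0.0873 FPKM in liver Ter (log2 fold change 2.65 ± 0.17, limma adjusted p = 2.74e-05). Gbp7 had 3.903 and 9.001 FPKM in spleen Ter, against 0.0874 and 0.122 FPKM in liver Ter, and the groups did not overlap for any of the 3. 
The polymerases attach ADP-ribose to proteins. Parp14 had 2.48 and 5.44 FPKM in spleen Ter, against 0.313 and 0.331 FPKM in liver Ter (log2 fold change 1.84 ± 0.29, limma adjusted p = 0.00146). Parp9 had 2.15 and 8.54 FPKM in spleen Ter, against 2.21 and 2.42 FPKM in liver Ter, was not called (log2 fold change 0.73 ± 0.48, limma adjusted p = 0.216) and overlapped between the groups. Among the rest, Trim30a, a ubiquitin ligase family protein that dampens inflammatory signalling, had 17.9 and 27.5 FPKM in spleen Ter, against 0.111 and 0.194 FPKM in liver Ter (log2 fold change 4.33 ± 0.25, limma adjusted p = 1.83e-05). Samd9l, which restrains growth of blood progenitors, had 10.3 and 22.04 FPKM in spleen Ter, against 0.0839 and 0.116 FPKM in liver Ter (log2 fold change 3.87 ± 0.43, limma adjusted p = 2.66e-04). Rtp4 had 9.47 and 27.7 FPKM in spleen Ter, against 0.0329 and 0 FPKM in liver Ter (log2 fold change 4.09 ± 0.55, limma adjusted p = 6.57e-04). These 3 were close to absent from liver Ter and clear in both spleen libraries. Xaf1, a pro-apoptotic protein, had 2.795 and 7.68 FPKM in spleen Ter, against 0.0374 and 0.0365 FPKM in liver Ter (log2 fold change 2.47), and Ifi35 25.1 and 49.1 FPKM, against 7.08 and 6.603 FPKM (log2 fold change 2.21). Cmpk2, a mitochondrial nucleotide kinase whose gene neighbours Rsad2 on chromosome 12, did not follow it, with 4.74 and 7.91 FPKM in spleen Ter, against 5.53 and 6.22 FPKM in liver Ter (log2 fold change 0.06 ± 0.24, limma adjusted p = 0.848).

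**Figure D2:**
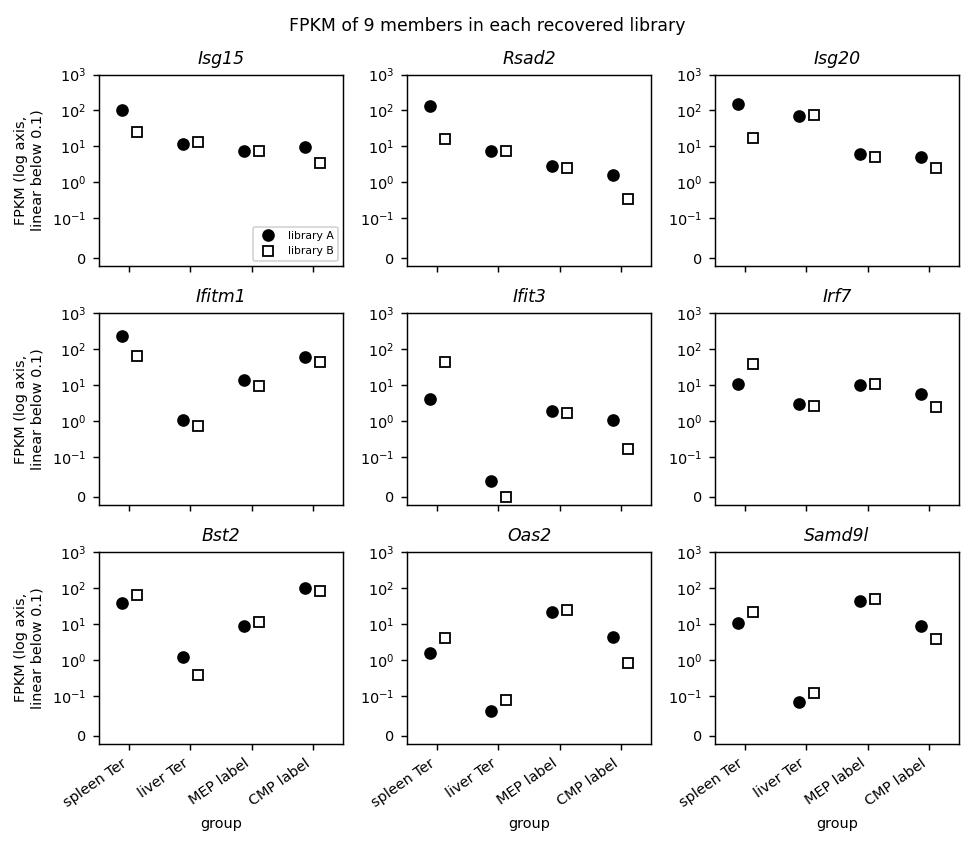
FPKM of 9 members in each of the 8 recovered libraries, on a log axis that is linear below 0.1; circles are library A and squares library B of a group. Isg15, Rsad2, Isg20 and Ifitm1 are higher in library A of spleen Ter, Ifit3 and Irf7 in library B, and Oas2 and Samd9l are highest in the MEP-labelled libraries.

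The members did not move together between the 2 spleen Ter libraries. Of the 38 tested, 4 were at least 2-fold higher in library A and 14 at least 2-fold higher in library B, against 4.15% and 17.9% of all genes, with no test since each side is 1 library. Between the liver Ter libraries 0 members were at least 2-fold higher in A or in B, against 0.308% and 0.34% of all genes, and between the MEP libraries 0 members, against 0.751% and 0.253%. The 4 higher in library A were Isg20 (149 against 17.3 FPKM in B), Rsad2 (132 against 16.6 FPKM), Isg15 (104 against 25.3 FPKM) and Ifitm1 (234 against 65.8 FPKM). The red cell genes ran the same way, with Alas2 at 366 FPKM in A and 32.3 FPKM in B. So did the granulocyte genes Ly6g, at 102 FPKM in A and 16.3 FPKM in B, and Elane, at 249.8 FPKM in A and 17.3 FPKM in B. The neutrophil gene Mmp8 did not, at 58.2 FPKM in A and 60.9 FPKM in B. S100a8, S100a9 and Retnlg were not recovered in the spleen Ter libraries. Isg20, Rsad2 and Isg15 were also the members with the highest means in liver Ter, at 72.6, 7.43 and 12.3 FPKM, where the next was Ifi35 at 6.84 FPKM. Ifitm1 was not, at 0.909 FPKM.
The 14 higher in library B were Ifit1, Ifit2, Ifit3, Oasl1, Dhx58, Zbp1, Irf7, Stat2, Usp18, Gbp7, Parp9, Rtp4, Xaf1 and Samd9l. Ifit3 showed the widest gap, at 4.13 FPKM in A and 45.03 FPKM in B. The macrophage genes ran the same way, with 54.6 FPKM of C1qb in A and 414 FPKM in B, but not alone. The NK cell genes Klrb1c (1.36 FPKM in A and 13.9 FPKM in B) and Ncr1 (2.66 and 11.9 FPKM) did so too, while Nkg7 did not (387 and 369 FPKM). Lymphoid progenitor markers summed to 27.4 FPKM in A and 75.3 FPKM in B. The part of red cells, granulocytes, macrophages or these other cells in the gaps was not tested. In CMP, 4 members (Oas2, Isg15, Rtp4 and Samd9l) were at least 2-fold higher in library A, against 1.23% of all genes, and 0 in library B, against 0.751%. Neutrophil genes were also higher in CMP library A, with Ly6g at 13.1 FPKM, against 1.19 FPKM in library B, and their part was not tested.

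**Figure D3:**
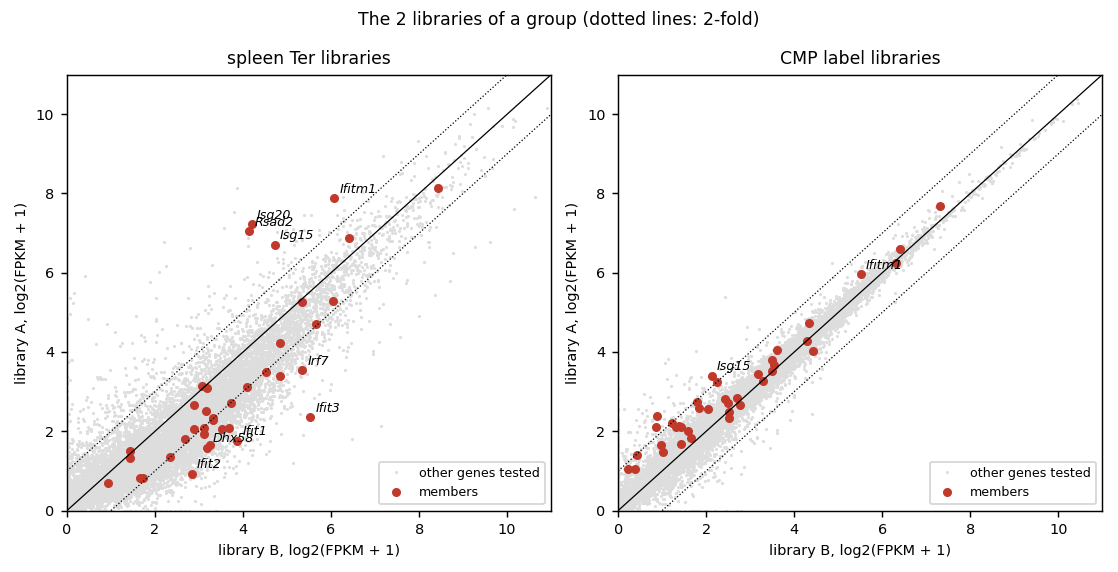
Library A against library B of spleen Ter (left) and of the libraries labelled CMP (right), each point 1 gene on log2(FPKM + 1) axes, members in red, other tested genes in grey, dotted lines at 2-fold. In spleen Ter the members split, 4 above the upper line and 14 below the lower one, while in CMP they lie close to the diagonal with 4 above the upper line.

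Against the libraries labelled MEP, spleen Ter was higher for 15 members and lower for 6, where 23.6% of all genes were called higher and 19.4% lower. The median log2 fold change was 0.94 over the members and 0.10 over all genes. Those that rose were Ifitm1, Bst2, Rsad2, Isg20, Oasl1, Zbp1, Irf1, Isg15, Usp18, Gbp2, Gbp3, Gbp7, Ifi35, Rtp4 and Xaf1. Rsad2 led, with 132 and 16.6 FPKM in spleen Ter, against 2.89 and 2.57 FPKM in MEP (log2 fold change 3.7 ± 0.86, limma adjusted p = 0.00956). Ifitm1 had 234 and 65.8 FPKM in spleen Ter, against 13.5 and 9.47 FPKM in MEP (log2 fold change 3.35 ± 0.55, limma adjusted p = 0.00217). Isg20 had 149 and 17.3 FPKM in spleen Ter, against 6.25 and 4.98 FPKM in MEP (log2 fold change 2.99 ± 0.87, limma adjusted p = 0.0235). In all 3 the lower spleen library still exceeded both MEP libraries. The Isg20 call was nonetheless lost without MEP library A and without MEP library B, and the Rsad2 call without MEP library B. Of the 3, Ifitm1 alone kept its call without each library in turn.
The 6 that fell were the double-stranded RNA effectors Oas1a, Oas2, Oas3 and Eif2ak2, with Samd9l and Cmpk2. Their share of the 38 members tested was under the 19.4% of all genes called lower, and no test of the roles was made. Oas2 had 1.56 and 4.06 FPKM in spleen Ter, against 21.1 and 24.1 FPKM in MEP (log2 fold change -2.71 ± 0.52, limma adjusted p = 0.00438). Oas3 had 1.83 and 1.68 FPKM in spleen Ter, against 14.4 and 16.6 FPKM in MEP (log2 fold change -2.58 ± 0.32, limma adjusted p = 6.55e-04). Eif2ak2 had 1.502 and 1.71 FPKM in spleen Ter, against 7.78 and 8.34 FPKM in MEP (log2 fold change -1.8 ± 0.16, limma adjusted p = 1.83e-04). The groups did not overlap for any of the 6, which the call rule favours. Within the double-stranded RNA role 4 of 6 thus fell and Oasl1 alone rose, while Isg15, Usp18 and all 3 Gbp genes rose; of these, Oasl1, Isg15, Usp18 and Gbp7 lost their calls without MEP library A and without MEP library B, and Gbp7 also under median-of-ratios and quantile scaling. Ifitm3 was not called, with 282 and 344 FPKM in spleen Ter, against 429 and 431 FPKM in MEP. Without each library in turn, 11 of the 21 calls remained. Members called higher numbered 7 without MEP library A and 6 without MEP library B, and those called lower 11 without spleen Ter library B. Because the libraries labelled MEP carry neutrophil genes, with Ly6g at 297 and 301 FPKM against 102 and 16.3 FPKM in spleen Ter, the contrast is with the libraries as labelled, and the part of those cells was not tested.

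Against the libraries labelled CMP, 13 members rose in spleen Ter and 3 fell, where 14.3% of all genes were called higher and 28.1% lower. Over the members the median log2 fold change was 0.57, and over all genes it was -0.39. Higher were Ifit1, Ifit3, Rsad2, Isg20, Oasl2, Zbp1, Irf1, Irf7, Isg15, Usp18, Ifi35, Rtp4 and Samd9l; lower were Eif2ak2, Gbp3 and Mx1. Rsad2 had 132 and 16.6 FPKM in spleen Ter, against 1.63 and 0.345 FPKM in CMP (log2 fold change 4.69 ± 0.86, limma adjusted p = 0.00358). Isg20 had 149 and 17.3 FPKM in spleen Ter, against 5.03 and 2.57 FPKM in CMP (log2 fold change 3.5 ± 0.87, limma adjusted p = 0.013), and Ifit3 4.13 and 45.03 FPKM, against 1.06 and 0.171 FPKM (log2 fold change 3.31 ± 0.91, limma adjusted p = 0.0193). Spleen Ter did not overlap CMP for any of these. On the other side Eif2ak2 had 1.502 and 1.71 FPKM in spleen Ter, against 10.4 and 10.4 FPKM in CMP (log2 fold change -2.13 ± 0.16, limma adjusted p = 1.04e-04), Gbp3 5.35 and 6.42 FPKM, against 18.3 and 18.7 FPKM (log2 fold change -1.51 ± 0.17, limma adjusted p = 4.32e-04), and Mx1 0.763 and 2.32 FPKM, against 4.63 and 4.74 FPKM (log2 fold change -1.23 ± 0.29, limma adjusted p = 0.00986). Bst2, far higher in spleen Ter than in MEP, was not called here (38.2 and 64.6 FPKM in spleen Ter, against 96.6 and 84.05 FPKM in CMP).
The calls that remained without each library in turn were 5 of 16: Rsad2, Eif2ak2, Gbp3, Ifi35 and Rtp4. Without CMP library B the count of higher members was 4, and without spleen Ter library B that of lower members was 7. Under median-of-ratios scaling the split was 18 higher and 1 lower, with Gbp3 and Mx1 no longer called. The 3 contrasts share the spleen Ter libraries, so their calls are not independent of each other.

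**Figure D4:**
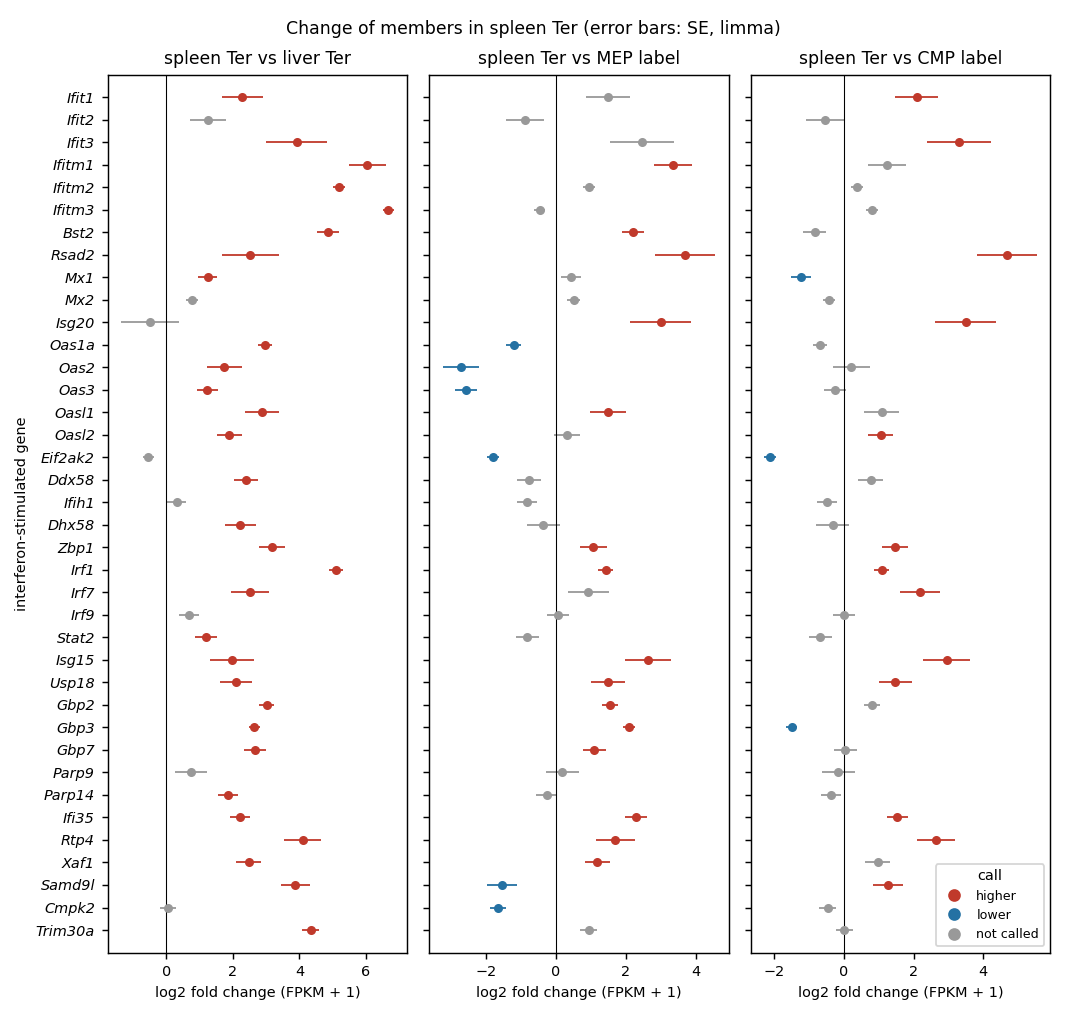
Log2 fold change of each tested member in spleen Ter against liver Ter, MEP and CMP, with the limma standard error as bars; red marks members called higher, blue lower and grey not called. Nearly all points lie right of 0 against liver Ter, while Oas1a, Oas2, Oas3, Eif2ak2, Samd9l and Cmpk2 lie left of 0 against MEP.

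Set against MEP, liver Ter was lower for 24 members and higher for 1, where 33.4% of all genes were called lower and 8.65% higher. Both liver Ter libraries were below both MEP libraries for 35 of the 39 members. That count was not made over all genes, whose median also fell. Ifitm3 had 1.96 and 2.19 FPKM in liver Ter, against 429 and 431 FPKM in MEP (log2 fold change -7.13 ± 0.16, limma adjusted p = 2.71e-06). Samd9l, a growth-restraining factor mutated in some inherited marrow failures in people, had 0.0839 and 0.116 FPKM in liver Ter, against 42.1 and 50.8 FPKM in MEP (log2 fold change -5.42 ± 0.43, limma adjusted p = 7.39e-05). Over the members the median log2 fold change was -1.57, and over all genes -0.54. Oas2 had 0.063 and 0.0897 FPKM in liver Ter, against 21.1 and 24.1 FPKM in MEP (log2 fold change -4.45 ± 0.52, limma adjusted p = 4.41e-04). All 4 sensors fell, by 3.16 for Ddx58 and 1.12 for Ifih1 on the log2 scale, but the call of Ifih1 was lost without any 1 of the 4 libraries and under each of the other 3 scalings. Of the 25 calls, 19 remained without each library in turn.
Rsad2, Isg20 and Isg15 ran against this. Isg20 had 71.4 and 73.8 FPKM in liver Ter, against 6.25 and 4.98 FPKM in MEP (log2 fold change 3.48 ± 0.87, limma adjusted p = 0.0134). Rsad2 had 7.33 and 7.54 FPKM in liver Ter, against 2.89 and 2.57 FPKM in MEP (log2 fold change 1.18 ± 0.86, limma adjusted p = 0.288), and Isg15 11.7 and 12.97 FPKM, against 7.36 and 7.51 FPKM (log2 fold change 0.66 ± 0.67, limma adjusted p = 0.443). Both liver libraries were above both MEP libraries for all 3, but Isg20 alone was called, and that call was lost when any 1 of the 4 libraries was left out, with 0 members then called higher. The spread that limma shares over the groups includes the wide gap between the spleen libraries for these genes; in a fit of liver Ter and MEP alone 2 members were called higher. The enzyme that conjugates Isg15, Ube2l6, was also high in liver Ter, with a mean of 548 FPKM against 25.1 FPKM in MEP, but its liver libraries were not recovered and it was not tested.

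The last tested comparison was between the 2 marrow progenitor labels. MEP was higher than CMP for 6 members and lower for 5, where 7.42% of all genes were called higher and 24.3% lower. The 3 largest increases in MEP were in Oas2, Samd9l and Oas3. Oas2 had 21.1 and 24.1 FPKM in MEP, against 4.25 and 0.837 FPKM in CMP (log2 fold change 2.92 ± 0.52, limma adjusted p = 0.00449). Samd9l had 42.1 and 50.8 FPKM in MEP, against 8.55 and 3.75 FPKM in CMP (log2 fold change 2.81 ± 0.43, limma adjusted p = 0.00236), and Oas3 14.4 and 16.6 FPKM in MEP, against 3.65 and 1.33 FPKM in CMP (log2 fold change 2.32 ± 0.32, limma adjusted p = 0.00162). The other 3 that rose were Ifitm3, Ddx58 and Cmpk2. No called member overlapped between the groups, which the call rule favours.
Lower in MEP were Gbp3, Bst2, Ifitm1, Mx1 and Gbp7. Gbp3 had 0.61 and 0.625 FPKM in MEP, against 18.3 and 18.7 FPKM in CMP (log2 fold change -3.59 ± 0.17, limma adjusted p = 1.57e-04). Bst2 had 8.64 and 11.5 FPKM in MEP, against 96.6 and 84.05 FPKM in CMP (log2 fold change -3.05 ± 0.33, limma adjusted p = 6.31e-04). The Ifitm genes thus split by label, with Ifitm1 at 13.5 and 9.47 FPKM in MEP, against 61.3 and 44.4 FPKM in CMP (log2 fold change -2.11 ± 0.55, limma adjusted p = 0.0196), and Ifitm3 at 429 and 431 FPKM in MEP, against 203 and 157 FPKM in CMP (log2 fold change 1.26 ± 0.16, limma adjusted p = 0.00129). The Ifitm1 call was lost whichever MEP or CMP library was left out, and under median-of-ratios scaling, while the Ifitm3 call was kept in each case. Ifitm6, a relative in the same cluster, had means of 1107 FPKM in MEP and 27.4 FPKM in CMP. Without each library in turn, 7 of the 11 calls remained; the count of lower members was 3 without MEP library A, without MEP library B or without CMP library A. Scaling by median of ratios turned the split into 10 higher and 3 lower (quantile scaling, 9 and 4).

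The study's own control, the CD45+ spleen cells, could be compared with spleen Ter on deposited means alone, without a test and across columns made in different ways. By a 2-fold rule 9 of 38 members had a higher mean in spleen Ter and 11 a lower one, where 13.5% of all genes were higher and 28.4% lower. Ifitm1 had a mean of 150.1 FPKM in spleen Ter and 1.78 FPKM in the control, and Rsad2 74.2 FPKM in spleen Ter and 3.52 FPKM in the control. Ifitm2, Ifitm3, Isg20, Rtp4, Isg15, Irf7 and Irf1 were the other 7. Gbp3 had 5.89 FPKM in spleen Ter and 24.5 FPKM in the control, and Ddx58 4.81 FPKM in spleen Ter and 18.8 FPKM in the control. The lower side also held Gbp2, Oas1a, Oas3, Eif2ak2, Parp9, Parp14, Stat2, Samd9l and Zbp1. By role, 5 of the 8 membrane and other effectors were higher in spleen Ter and none lower, while 3 of the 6 double-stranded RNA effectors, both polymerases and 2 of the 3 guanylate-binding proteins were lower; Irf1 and Irf7 were higher and Stat2 lower. No test of the roles was made, and the share of members lower is close to that of all genes. Markers of other cells differ between the same columns, with the 6 macrophage markers at 583 FPKM in spleen Ter and 37.1 FPKM in the control, the 5 neutrophil markers at 19125 FPKM in spleen Ter and 603 FPKM in the control, and the 6 erythroid markers at 38345 FPKM in spleen Ter and 125 FPKM in the control; their part was not tested. After quantile scaling of the columns 5 rather than 11 members were at least 2-fold lower.

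HSC and CLP, in columns made like the control's, were close to each other. By the 2-fold rule 1 of the 39 members differed between them, Ifitm1, higher with a mean of 104 FPKM in HSC and 23.04 FPKM in CLP, where 3.09% of all genes were at least 2-fold higher in HSC and 2.45% lower. The spleen control was at least 2-fold higher than HSC for 1 member, Zbp1, and lower for 9, where 10.5% of all genes were higher and 16.2% lower. Against CLP it was higher for Samd9l and Zbp1 and lower for 6 members, where 11.1% of all genes were higher and 17% lower. The Ifitm genes made the widest gaps, with Ifitm2 at 15.5 FPKM in the control, against 303 FPKM in HSC and 159 FPKM in CLP. The HSC and CLP columns also held markers of other cells: the 5 neutrophil markers summed to 603 FPKM in the control, against 8498 FPKM in HSC and 11597 FPKM in CLP, and the 6 macrophage markers to 37.1 FPKM in the control, against 294 FPKM in HSC and 246 FPKM in CLP. The 5 B cell markers summed to 1837 FPKM in the control, 391 FPKM in HSC and 583 FPKM in CLP, and the part of these cells was not tested. Ifi44, under 1 FPKM in the other 5 groups, had 5.81 FPKM in HSC and 5.52 FPKM in CLP.

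The ligands, receptors and signalling genes of the pathway give the setting for these values. The alpha genes Ifna1, Ifna2, Ifna4 and Ifna11, Ifnb1, Ifne and the lambda genes Ifnl2 and Ifnl3 were listed at 0 in every column. Ifna5 reached 0.111 FPKM in CLP. Interferon gamma was the exception. Ifng had 15.6 and 11.6 FPKM in spleen Ter, against 0 and 0.0472 FPKM in liver Ter (log2 fold change 3.82 ± 0.18, limma adjusted p = 9.80e-06), and its mean was 13.5 FPKM in the spleen control. T cell markers are in both spleen groups, at a sum of 196 FPKM in spleen Ter and 298 FPKM in the control, and their part in the Ifng level was not tested.

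Receptor genes did not all change alike. The values below cover a single chain each for the type I and gamma receptors, and Ifnlr1 in another contrast. Ifnar2, a chain of the type I receptor, had 10.1 and 20.9 FPKM in spleen Ter, against 14.4 and 14.05 FPKM in liver Ter, a change of 0.03 ± 0.30 (SE, limma adjusted p = 0.934). Ifngr1, the ligand-binding chain for interferon gamma, had 54.96 and 132 FPKM in spleen Ter, against 1.699 and 1.86 FPKM in liver Ter (log2 fold change 4.96 ± 0.37, limma adjusted p = 5.14e-05). The receptor for lambda interferons, Ifnlr1, was found in the MEP-labelled libraries at 20.02 and 23.98 FPKM, against 0.948 and 0.125 FPKM in CMP (log2 fold change 3.95 ± 0.31, limma adjusted p = 2.79e-04). As deposited, MEP was also the highest column for the members Ifitm3, Oas2, Oas3, Samd9l and Cmpk2, and a link to Ifnlr1 was not tested.
Liver Ter was not low in the whole pathway. Jak2, which red cell precursors need for the erythropoietin receptor, had 7.63 and 15.8 FPKM in spleen Ter, against 27.6 and 29.8 FPKM in liver Ter (log2 fold change -1.3 ± 0.30, limma adjusted p = 0.00708), and Mavs, the adaptor of Ddx58 and Ifih1, had 2.97 and 9.27 FPKM in spleen Ter, against 29.05 and 28.2 FPKM in liver Ter (log2 fold change -2.21 ± 0.42, limma adjusted p = 0.00302). The feedback inhibitor Socs1 was 16.3 and 28.8 FPKM in spleen Ter, against 0.0574 and 0.0935 FPKM in liver Ter (log2 fold change 4.4 ± 0.29, limma adjusted p = 3.12e-05). It also rose against MEP (log2 fold change 2.28) and CMP (log2 fold change 2.73).

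**Figure D5:**
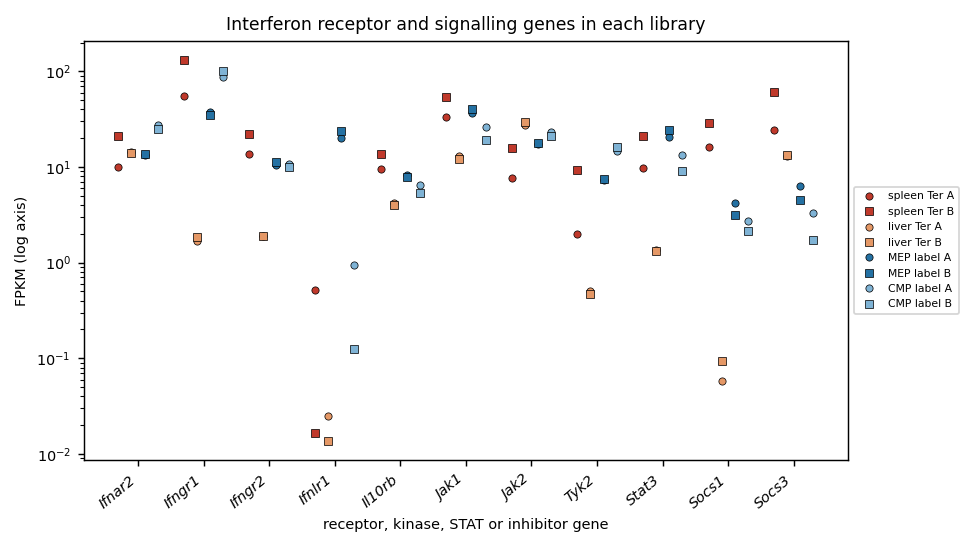
FPKM on a log axis of 11 receptor, kinase, STAT and inhibitor genes in each of the 8 recovered libraries; circles are library A and squares library B, coloured by group. Liver Ter lies lowest for Ifngr1, Tyk2, Stat3 and Socs1 and highest for Jak2, and Ifnlr1 reaches 20.02 and 23.98 FPKM in the MEP-labelled libraries.

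Counted over the 82 pathway genes outside the members, of which 63 were tested, 49 rose and 2 fell in spleen Ter against liver Ter, beside 43.3% and 11.6% of all genes; the 2 were Jak2 and Mavs. Against MEP 23 rose and 6 fell in spleen Ter, and against CMP 15 rose and 7 fell, beside the 23.6% and 19.4% (MEP) and 14.3% and 28.1% (CMP) of all genes given above. Liver Ter was lower than MEP for 39 and higher for 1, Mavs, beside 33.4% and 8.65% of all genes. MEP was higher than CMP for 6 and lower for 15, beside 7.42% and 24.3% of all genes, so the lower share is close to the background. The list includes further inducible genes with the Ifitm pattern, such as Ly6e, a surface protein, at 311 and 439 FPKM in spleen Ter, against 4.74 and 4.54 FPKM in liver Ter (log2 fold change 6.04 ± 0.17, limma adjusted p = 2.82e-06), and the growth regulator Slfn2, at 127 and 167 FPKM in spleen Ter, against 0.863 and 0.72 FPKM in liver Ter (log2 fold change 6.35 ± 0.20, limma adjusted p = 3.26e-06). Ube2l6 shared the library pattern of Isg15, with 345 FPKM in spleen Ter library A and 31.6 FPKM in library B, and a mean of 548 FPKM in liver Ter, the highest of the 7 groups, against 4.28 to 25.1 FPKM in the control and marrow groups.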

How the data were processed

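RNA was sequenced from 14 samples in 7 groups; libraries were made from total RNA, per the labels' protocols, and mm10 is named in the submitters' processing notes. The aligner, read counter and gene models stay unnamed, being not given in the sources used here. Values were deposited as FPKM, 1 mean per group made by the authors. Of 49588 lines, 2 had no gene name and 3 were repeats; 49324 genes were matched by ID to GENCODE M21, which gave symbols, exon lengths and coordinates, and 259 were not.
Each mean of spleen Ter, liver Ter, MEP and CMP was solved for the pair of whole fragment counts that gives its digits at the gene's exon length. The step was found from low values, of which 87.2% to 90.5% came out whole, against 0% in the other 3 columns. Of 14049 genes at 1 FPKM or more, 13449 (95.7%) were recovered in all 8 libraries, among them Mx1, Cmpk2, Rsad2 and Stat2 with a length found from the steps. The planned design assumed values per sample, which the file holds only in this form.
Group means and contrasts were estimated with limma 3.58.1 under R 4.3.3, using trended empirical Bayes variances, from log2(FPKM + 1) in the 8 libraries, over 12643 genes with at least 1 FPKM in 2 libraries, with 4 residual and 2.61 prior degrees of freedom. Calls needed a Benjamini-Hochberg adjusted p under 0.05 and a 2-fold change. Recovery and fit were tested on simulated data. For the control, HSC and CLP, log2 ratios of (mean + 1) were compared with a 2-fold rule and no test. Alternatives covered the pseudocount, filter, scaling, call rule, samples in the fit and each library left out. Full values were given to the 2 highest members of each role, the 3 largest changes in each direction and members called against the majority. The members and lists were chosen with earlier results of these data known. Intervals of counting error were not computed; depths are those of the recovered libraries and unknown elsewhere.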

Additional observations from a re-analysis of the deposited data

How the results depend on the processing

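No paired analysis was possible because the recovered libraries carry no replicate number. No member called in the 5 tested comparisons changed sign under any alternative run, but counts of calls moved. With no expression filter, 8 members were called higher in spleen Ter against MEP, 8 higher against CMP, and 3 lower in MEP against CMP. Under median-of-ratios scaling, 2 were lower in spleen Ter against liver Ter, 1 lower in spleen Ter against CMP, 2 higher in liver Ter against MEP, and 10 higher and 3 lower in MEP against CMP; quantile scaling, totals without globin genes and the adjusted p alone each gave 1 lower in spleen Ter against liver Ter, and the adjusted p alone 9 lower in MEP against CMP. Globin genes held 47.6% of FPKM in liver Ter and 13.7% in spleen Ter. Fits of the 2 groups compared gave 9 higher in spleen Ter against MEP, 6 higher against CMP and 2 higher in liver Ter against MEP, where deposited means with no test, added after the data were seen, also gave 2. Leaving out each library, calls in spleen Ter were 24 to 32 higher and 0 to 1 lower against liver Ter, 6 to 19 higher and 5 to 11 lower against MEP, and 4 to 16 higher and 2 to 7 lower against CMP; liver Ter against MEP gave 0 to 0 higher and 19 to 21 lower, and MEP against CMP 4 to 6 higher and 3 to 5 lower. In untested ratios, 6 members were lower in spleen Ter against the spleen control by median of ratios and 5 by quantile scaling; the spleen control against HSC gave 2 higher with a pseudocount of 0.1 or quantile scaling, and 4 higher and 5 lower by median of ratios. The highest column was liver Ter for 2, HSC for 4, CLP for 4, MEP for 9 and CMP for 1 member by median of ratios, and liver Ter for 2, HSC for 4, CLP for 3, MEP for 8 and CMP for 3 by quantile scaling. The fit without the MEP libraries, added after the data were seen, moved no count of members by more than 1.5 times. Having 2 libraries per group, and a spread pooled over groups of unequal spread, limits what the adjusted p-values can carry.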
